A study of Mus musculus with 2 samples.

Results

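The heat shock chaperones are 10 genes of the 32285 in the count tables, chosen by name: Hspa1a, Hspa1b, Hspb1, Dnajb1, Hsph1, Hsp90aa1, Hsp90ab1, Hspa8, Hspa5 and Cryab. Heat shock proteins bind other proteins while these fold, hold damaged proteins in solution and pass them on to refolding or degradation. HSP70 proteins work in cycles of ATP hydrolysis that J-domain proteins of the HSP40 class start and nucleotide exchange factors end, HSP90 takes over late folding steps of kinases and receptors, and small heat shock proteins hold unfolded proteins without ATP. Heat shock factor 1 raises the inducible members when unfolded proteins accumulate, whereas BiP, the product of Hspa5, answers to stress of the endoplasmic reticulum. In the retina, photoreceptors make large amounts of membrane protein each day, and Cryab is a lens and glial crystallin as well as a small heat shock protein.

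The retinae came from mice of 6 to 9 weeks of a Balb-C/CD1 background with floxed Tgfbr2 alleles, which the labels class as wild type, and with the L450 form of RPE65 on both alleles. Control mice were kept in darkness for 18 h, and light-damaged mice, after the same 18 h of darkness, received white light of 5000 lux for 30 min and recovered for 6 h in dim light. Retinae of 3 to 5 animals, of both sexes, were pooled per condition, digested with enzymes and loaded on 1 droplet lane per pool, so that each condition is 1 library. No test is possible with 1 library each. The intervals, at 95%, hold counting error alone and none of the variation among mice or libraries, and any difference named here is one between these libraries.

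The genes lie on 6 chromosomes of the GRCm38 assembly. Hspa1a (ENSMUSG00000091971, chr17:34969190-34972156, minus strand) and Hspa1b (ENSMUSG00000090877, chr17:34956436-34959238, minus strand) are neighbours without introns. Hsp90ab1 (ENSMUSG00000023944, chr17:45567775-45573271, minus strand) lies further along chromosome 17, Hspb1 (ENSMUSG00000004951, chr5:135887919-135889563, plus strand) and Hsph1 (ENSMUSG00000029657, chr5:149614287-149636376, minus strand) on chromosome 5, Hspa8 (ENSMUSG00000015656, chr9:40800984-40810087, plus strand) and Cryab (ENSMUSG00000032060, chr9:50751325-50756636, plus strand) on chromosome 9. Dnajb1 (ENSMUSG00000005483, chr8:83608193-83612653, plus strand), Hspa5 (ENSMUSG00000026864, chr2:34771970-34777547, plus strand) and Hsp90aa1 (ENSMUSG00000021270, chr12:110690605-110702728, minus strand) complete the set.

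The promoters were searched for inverted repeats of GAA, the letters of the element that heat shock factors bind. Entries of RefSeq on GRCm38.p6 were found for 6 of the 10 members, and 4 were named only: Hsp90aa1, Hsp90ab1, Hspa8 and Cryab. The lines give the 250 bases before the annotated start, 5′ to 3′ on the gene's strand. Capitals mark GAANNTTC in Hspa1a, Hspa1b and Hspb1, TTCNNGAA in Hsph1 and, in Hspa5, the endoplasmic reticulum stress element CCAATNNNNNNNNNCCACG.
Hspa1a, chr17:34972157-34972406, minus strand: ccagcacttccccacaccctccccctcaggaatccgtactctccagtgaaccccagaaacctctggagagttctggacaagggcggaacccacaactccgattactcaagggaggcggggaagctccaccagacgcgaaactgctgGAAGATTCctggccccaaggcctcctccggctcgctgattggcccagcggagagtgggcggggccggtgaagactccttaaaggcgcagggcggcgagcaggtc
Hspa1b, chr17:34959239-34959488, minus strand: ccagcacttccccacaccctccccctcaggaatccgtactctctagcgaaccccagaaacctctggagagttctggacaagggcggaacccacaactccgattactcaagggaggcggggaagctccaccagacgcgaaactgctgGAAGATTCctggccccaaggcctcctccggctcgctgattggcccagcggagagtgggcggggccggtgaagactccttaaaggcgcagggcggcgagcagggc
Hspb1, chr5:135887669-135887918, plus strand: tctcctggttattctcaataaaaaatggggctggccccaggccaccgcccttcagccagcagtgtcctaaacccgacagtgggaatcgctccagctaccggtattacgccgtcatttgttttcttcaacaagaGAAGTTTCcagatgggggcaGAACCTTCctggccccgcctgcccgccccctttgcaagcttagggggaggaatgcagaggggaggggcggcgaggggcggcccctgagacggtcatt
Hsph1, chr5:149636337-149636586, minus strand: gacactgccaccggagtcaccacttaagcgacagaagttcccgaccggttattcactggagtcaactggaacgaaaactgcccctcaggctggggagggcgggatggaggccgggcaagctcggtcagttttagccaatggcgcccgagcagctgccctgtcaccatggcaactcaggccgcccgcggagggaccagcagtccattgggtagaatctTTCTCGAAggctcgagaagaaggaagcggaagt
Dnajb1, chr8:83607925-83608174, plus strand: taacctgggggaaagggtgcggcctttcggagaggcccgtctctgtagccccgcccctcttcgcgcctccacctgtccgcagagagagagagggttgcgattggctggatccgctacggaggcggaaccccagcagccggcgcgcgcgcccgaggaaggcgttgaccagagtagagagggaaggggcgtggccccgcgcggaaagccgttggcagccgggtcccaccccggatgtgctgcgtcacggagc
Hspa5, chr2:34771840-34772089, plus strand: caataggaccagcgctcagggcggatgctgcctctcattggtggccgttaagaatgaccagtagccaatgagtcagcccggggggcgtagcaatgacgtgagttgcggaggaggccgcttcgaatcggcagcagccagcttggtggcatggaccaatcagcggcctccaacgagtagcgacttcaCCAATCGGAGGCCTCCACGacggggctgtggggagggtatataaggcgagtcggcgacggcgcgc

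Hspa1a and Hspa1b differed at 3 of these 250 bases, and both held GAANNTTC 104 to 97 bases before the start. In Hspb1 the same letters began 117 and again 97 bases before the start, and Hsph1 held TTCNNGAA 33 to 26 bases before it. Hspa5 held its element 65 to 47 bases before the start, and Dnajb1 held none of these letters in this window. Hsph1 and Dnajb1 each had another RefSeq start, whose window is not printed. The Hsph1 match lay 54 to 47 bases before that start, and the other Dnajb1 window held none of these letters either. Searched on both strands, GAANNTTC stood in 6.69% and TTCNNGAA in 7.17% of 32851 RefSeq promoter windows of the same length, and 1 or both in 12.8%. The longer GAANNTTCNNGAA, which contains both, stood in 0.466% of windows and in none of the 6 members. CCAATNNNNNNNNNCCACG, which contains the CCAAT box, stood in 0.113%. A match describes the letters only.

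The classes compared were built from marker genes, since each droplet carries no name in the counts. Of 3669 control and 5593 light damage droplets kept, 7 barcodes occurred in both libraries. Rods were split on the share of unspliced UMIs, which come from RNA with introns and so from the nucleus: under 20% (cytoplasm-rich rods, 2356 control and 1895 light damage droplets), at least 30% (nucleus-rich rods, 717 and 3146) and in between (intermediate rods, 137 and 43). Droplets called cone-like (98 and 74), RPE-like (150 and 274, retinal pigment epithelium), Müller glia-like (44 and 19) and microglia-like (11 and 32) by their markers are written below as cones, RPE, Müller glia and microglia. Each held its own markers as labelled (at least 6 of 7 listed markers in RPE, all 9 in cones and Müller glia and all 10 in microglia in either library), with Best1 at 0 in control RPE. The classes differed in depth and in RNA from rods. Median UMIs per droplet were 2484 to 3988 in the 6 control classes and 3108 to 20480 in the 6 light damage classes. The 10 rod markers took 900 of 10000 UMIs in control cones against 344 in light damage cones, 615 against 50.3 in microglia, 200 against 32.4 in Müller glia and 79.5 against 28.1 in RPE. If all rod RNA in these droplets were free RNA, it would make up 88.4% of control and 44.1% of light damage cones, 60.4% and 6.45% of microglia, 19.7% and 4.15% of Müller glia and 7.81% and 3.61% of RPE. The part of this rod RNA in the differences below was not tested, except where a value without it is given.

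Levels are CPM, counts scaled to a total of 1000000, from the spliced and ambiguous UMIs summed over a class, and a gene counted as measured in a comparison when it had at least 50 UMIs over both groups. In light-damaged cytoplasm-rich rods 8 of 9 measured members were higher than in control ones and 1 was lower, a direction that 65.8% of all measured genes shared, and their median log2 ratio was 0.27 against 0.17 for all 9037 measured genes. A difference of at least 2-fold was met by 1 member, Cryab, and by 4.27% of all measured genes. In nucleus-rich rods 7 of 9 were higher, where 54.0% of all genes were, with a median of 0.17 against 0.05, and 1 was at least 2-fold apart (Dnajb1), against 11.2% of 10490 genes. A count of 1 in 9 does not set the members apart from all genes in either rod class.

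Cones had 3 of 7 measured members at least 2-fold apart, Hsph1 and Hsp90ab1 higher and Hspa1b lower, against a background of 17.6% of 4462 genes, and the members' median was 0.45 against 0.19. In RPE 0 of 7 measured members reached 2-fold, against 15.7% of 6190 genes, and the median was 0.29 against 0.03. Müller glia had 3 of 6 measured members at least 2-fold higher (Hsph1, Hsp90ab1 and Hspa5), where 41.9% of 1109 genes were that far apart. In microglia 2 of 4 measured members were at least 2-fold higher (Hsp90ab1 and Hspa5), where 54.3% of 1138 genes were. The small glial classes therefore set members against a wide spread of all genes. The limit for measured genes sums UMIs over both libraries, and light damage held more of them in both glial classes. Totals were 118304 UMIs in control and 193378 in light damage Müller glia, and 26698 and 304853 in microglia. Genes higher after light damage could thus pass the limit more easily, members and others alike. The part of this in the counts was not tested. With a minimum of 10 UMIs per gene the counts were 3 of 6 in Müller glia and 2 of 6 in microglia.

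**Figure D1:**
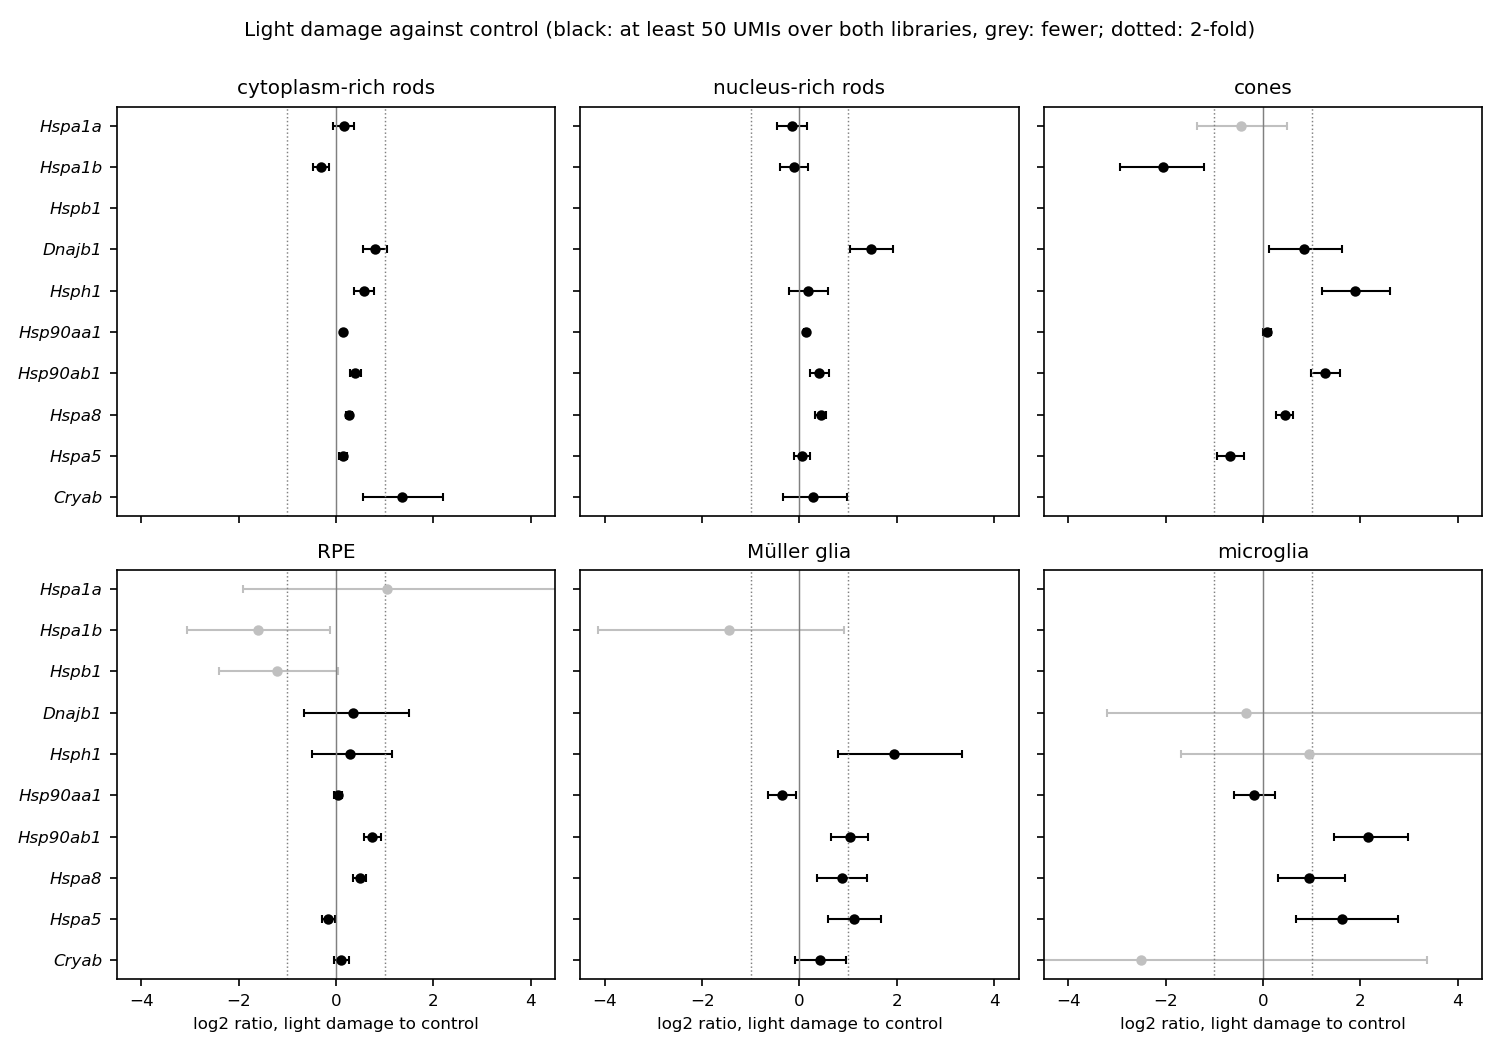
Log2 ratio of light damage to control for each member (vertical axis) in the 6 classes (panels), with 95% intervals of counting error. Grey points have under 50 UMIs over both libraries and the other points at least 50, intervals that reach the frame run past it, and members at 0 UMIs in a library are not drawn. Dnajb1 stands right of 0 in both rod classes and Hsp90ab1 in all 6 classes.

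**Figure D2:**
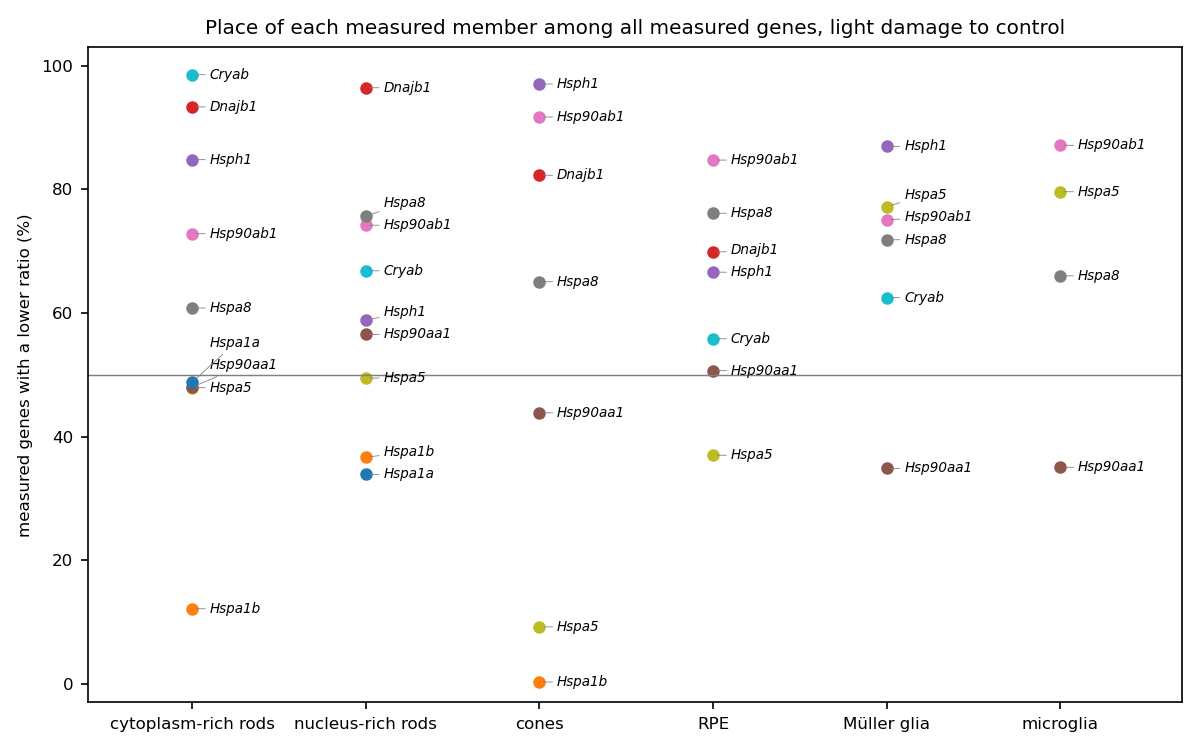
Place of each measured member among all measured genes by its light damage to control ratio (vertical axis, percent of measured genes with a lower ratio) in the 6 classes. Dnajb1 stands above 93.3% of genes in cytoplasm-rich and 96.4% in nucleus-rich rods, and Hspa1b above 0.29% in cones.

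Hspa1a and Hspa1b encode the inducible cytosolic HSP70, the classical product of the heat shock response. In cytoplasm-rich rods Hspa1a was at 46.0 CPM (95% interval 41.4 to 51.1, 355 UMIs) in control and 51.3 CPM (45.9 to 57.1, 334 UMIs) after light damage, with overlapping intervals. Hspa1b was at 101.9 CPM (94.9 to 109.3, 786 UMIs) in control and 82.0 CPM (75.2 to 89.2, 534 UMIs) after light damage, a log2 ratio of -0.31 (-0.48 to -0.15). The inducible pair was thus not higher in light-damaged cytoplasm-rich rods: summed, it stood at 148 CPM in control and 133 CPM after light damage, a log2 ratio of -0.15 (-0.28 to -0.02).

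In nucleus-rich rods neither copy differed detectably. Hspa1a was at 66.0 CPM (53.9 to 80.0, 104 UMIs) and 59.2 CPM (54.7 to 63.9, 649 UMIs), and Hspa1b at 74.3 CPM (61.4 to 89.0, 117 UMIs) and 68.3 CPM (63.5 to 73.4, 749 UMIs), in control and light damage. Their intervals overlapped, and the pair together had a log2 ratio of -0.14 (-0.34 to 0.07).

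Among cones Hspa1b was lower after light damage, at 22.4 CPM (13.3 to 35.4, 18 UMIs) against 92.6 CPM (66.2 to 126.1, 40 UMIs) in control, a log2 ratio of -2.05 (-2.94 to -1.21). Only 0.292% of measured genes had a lower ratio there. Hspa1a in cones was at 44.0 CPM (19 UMIs) and 32.4 CPM (26 UMIs), with overlapping intervals. Control cones held more rod RNA than light-damaged ones (above), 44 of 98 control and 7 of 74 light damage cones lay near the limit of the class, and cytoplasm-rich and nucleus-rich rods of both libraries had Hspa1b at 68.3 to 101.9 CPM. In cones with under 500 rod marker UMIs per 10000, a limit chosen after seeing the data that kept 3 control and 61 light damage droplets, the ratio of Hspa1b was -3.32.

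RPE and glia had few UMIs of the pair. RPE had 1 and 7 UMIs of Hspa1a and 9 and 10 UMIs of Hspa1b in control and light damage, with Hspa1b at 13.3 CPM and 4.37 CPM. Müller glia had 0 UMIs of Hspa1a in either library, which allows up to 25.4 CPM in control and 15.5 CPM in light damage, and 5 and 3 UMIs of Hspa1b. Microglia had 1 and 0 UMIs of Hspa1a and 0 and 4 of Hspa1b.

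The share of Hspa1b in the UMIs of the pair differed between the rod classes. It was 68.9% (66.1 to 71.6) in control and 61.5% (58.2 to 64.8) in light-damaged cytoplasm-rich rods, and 52.9% (46.1 to 59.7) and 53.6% (50.9 to 56.2) in nucleus-rich rods. The intervals of the 2 cytoplasm-rich groups did not overlap each other, and each lay above that of the nucleus-rich rods of its own library. Cones had 67.8% (54.4 to 79.4) of 59 UMIs in control and 40.9% (26.3 to 56.8) of 44 UMIs after light damage, and free RNA, taken from barcodes under 50 UMIs, had 50.9% and 54.9%. The copies share sequence: 1412 of 2877 stretches of 91 bases in the Hspa1a transcript (49.1%) also occur in Hspa1b, but 0 of 410 in the last 500 bases of either, where 3′ libraries read. How reads found in both copies were assigned was not tested, so the split between them is less certain than their sum.

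**Figure D3:**
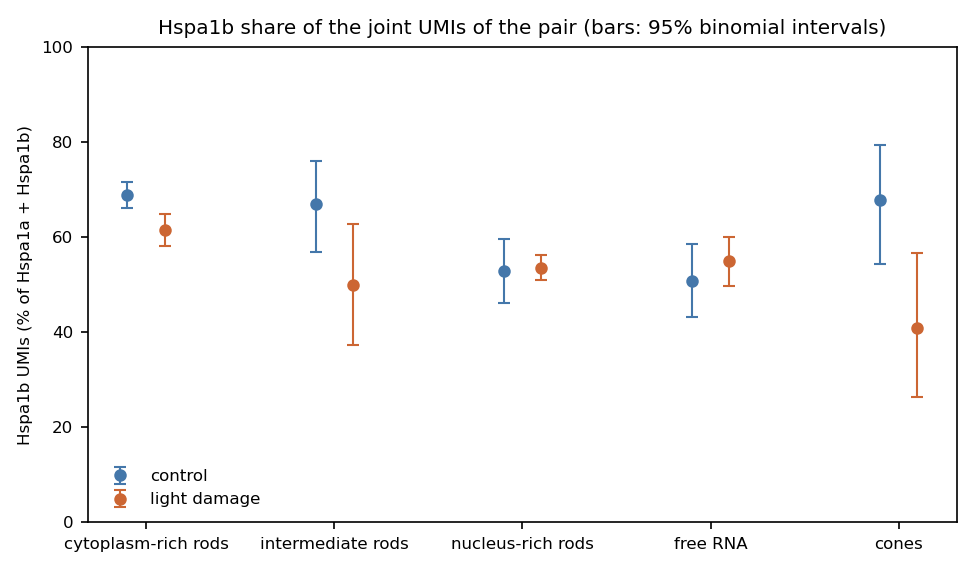
Share of Hspa1b in the UMIs of the inducible HSP70 pair, by class and library, with 95% intervals of counting error. The Hspa1b share is highest in control cytoplasm-rich rods among the 4 rod groups, at 68.9%, and is 52.9% and 53.6% in the nucleus-rich groups.

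Droplets with Hspa1a held Hspa1b and Dnajb1 more often than droplets without it. Of light-damaged nucleus-rich rods with a UMI of Hspa1a, 29.6% also had Hspa1b, against 14.0% of those without, and 31.1% against 15.5% had Dnajb1. Droplets with Hspa1a had a median of 4730.5 UMIs (spliced and ambiguous) against 2411.5 in the others, so depth moved with the pairing and its part was not tested. In no droplet of nucleus-rich rods did Hspa1a exceed 8 UMIs.

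Dnajb1 encodes an inducible HSP40 that delivers unfolded proteins to HSP70 and stimulates its ATPase. Its level in cytoplasm-rich rods was 31.0 CPM (27.2 to 35.2, 239 UMIs) in control and 53.7 CPM (48.2 to 59.7, 350 UMIs) after light damage, a log2 ratio of 0.79 (0.55 to 1.04) or 1.73-fold. Nucleus-rich rods had 28.6 CPM (20.8 to 38.2, 45 UMIs) and 78.6 CPM (73.4 to 84.0, 862 UMIs), a log2 ratio of 1.46 (1.03 to 1.93) or 2.75-fold. Light damage was higher in both rod classes with no overlap of intervals, and Dnajb1 had a higher ratio than 93.3% and 96.4% of measured genes.

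The share of rods with at least 1 UMI of Dnajb1 was higher after light damage as well. It was 6.66% in control and 14.2% in light-damaged cytoplasm-rich rods, and 5.02% and 17.7% in nucleus-rich rods. Thinned to 700 UMIs per droplet, since light damage droplets were deeper, the shares were 1.92% and 3.48%, and 1.48% and 4.00%. Free RNA held 31.8 CPM (40 UMIs) of Dnajb1 in the control and 83.0 CPM (212 UMIs) in the light damage library, so free RNA moved the same way as the rods. Its estimated share of rod droplets was 0.587% to 2.71%, and with it subtracted the log2 ratio of Dnajb1 was 0.79 in cytoplasm-rich and 1.46 in nucleus-rich rods. No class here lacks Dnajb1 by definition, so no background share can be given.

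Cones had 48.6 CPM (30.1 to 74.3, 21 UMIs) in control and 87.2 CPM (68.0 to 110.2, 70 UMIs) after light damage, with overlapping intervals and a log2 ratio of 0.84 (0.12 to 1.62), which was 0.16 with expected free RNA subtracted. RPE had 14.8 CPM (10 UMIs) and 18.8 CPM (43 UMIs), also overlapping. Müller glia had 0 and 7 UMIs and microglia 1 and 9. Among the 12 groups the highest levels, light-damaged cones and light-damaged nucleus-rich rods, overlapped in their intervals.

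Hsph1 encodes HSP110, which releases ADP from HSP70 and takes part in breaking up protein aggregates. In cytoplasm-rich rods it stood at 44.1 CPM (39.5 to 49.0, 340 UMIs) in control and 65.4 CPM (59.3 to 71.9, 426 UMIs) after light damage, a log2 ratio of 0.57 (0.36 to 0.78). It was higher there without overlap, whereas nucleus-rich rods had 38.7 CPM (29.6 to 49.7, 61 UMIs) and 43.5 CPM (39.7 to 47.6, 477 UMIs), with overlapping intervals. Cones showed the widest gap for a gene with over 100 UMIs among the members there: 48.6 CPM (30.1 to 74.3, 21 UMIs) in control and 179 CPM (151 to 211, 144 UMIs) after light damage, 3.69-fold (2.32 to 6.14).

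Of light-damaged cones 71.6% had a UMI of Hsph1 against 16.3% of control cones, and after thinning 12.3% against 3.95%. Light-damaged rods had Hsph1 at 43.5 to 65.4 CPM, below the level in light-damaged cones. The log2 ratio in cones, 1.88, was 1.82 in those with under 500 rod marker UMIs per 10000 and 0.95 with Leiden clusters in place of named droplets. Müller glia had 7 UMIs (59.2 CPM) in control and 44 UMIs (228 CPM) after light damage, of which 34.1% came from 1 droplet. RPE had 25.1 CPM (17 UMIs) and 30.6 CPM (70 UMIs), which overlapped, and microglia 1 and 22 UMIs.

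Hsp90aa1 and Hsp90ab1 encode the inducible and the constitutive cytosolic HSP90. Hsp90aa1 was the member with most UMIs, 132157 over the 12 groups, and its level differed more between classes than between libraries. Cytoplasm-rich rods had 4886 CPM (4837 to 4936) in control and 5419 CPM (5363 to 5476) after light damage, and nucleus-rich rods 3336 CPM (3246 to 3427) and 3667 CPM (3632 to 3703). Light damage was higher in both without overlap, by log2 ratios of 0.15 and 0.14. In cytoplasm-rich rods the median gene itself was 0.16 higher, and relative to it Hsp90aa1 was at -0.01.

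Cones had 4304 CPM (4110 to 4504) and 4544 CPM (4397 to 4693) of Hsp90aa1 and RPE 2374 CPM (2260 to 2493) and 2439 CPM (2375 to 2504), both with overlapping intervals. Müller glia had 1488 CPM (1276 to 1724) and 1164 CPM (1016 to 1326), a log2 ratio of -0.35 that turned to 0.04 relative to the median gene there. In microglia the values were 1985 CPM (53 UMIs) and 1739 CPM (530 UMIs), a log2 ratio of -0.19 that turned to 0.50 relative to the median gene. In order, cytoplasm-rich rods and cones stood above nucleus-rich rods and these above RPE, while the intervals of control RPE and control microglia overlapped. Free RNA had 2768 CPM in the control and 1633 CPM in the light damage library, a log2 ratio of -0.76, opposite to both rod classes.

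Hsp90ab1 was higher after light damage in all 6 classes. It stood at 148 CPM (140 to 157, 1143 UMIs) and 195 CPM (184 to 206, 1269 UMIs) in cytoplasm-rich rods, a log2 ratio of 0.39 (0.28 to 0.51), and at 157 CPM (138 to 178, 247 UMIs) and 208 CPM (199 to 216, 2276 UMIs) in nucleus-rich rods, a log2 ratio of 0.40 (0.21 to 0.60). The intervals were apart in both rod classes. RPE had 484 CPM (433 to 539, 328 UMIs) in control and 811 CPM (774 to 849, 1857 UMIs) after light damage, 1.68-fold (1.49 to 1.89), without overlap. The ratio in RPE exceeded that of 84.7% of measured genes.

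The largest levels of Hsp90ab1 were glial. Light-damaged microglia had 2693 CPM (2512 to 2884, 821 UMIs) against 599 CPM (343 to 973, 16 UMIs) in control microglia, a log2 ratio of 2.17 (1.46 to 2.98). Müller glia had 651 CPM (514 to 813, 77 UMIs) and 1329 CPM (1171 to 1502, 257 UMIs), a log2 ratio of 1.03 (0.66 to 1.42). Intervals were apart in both, and the richest light damage droplet held 12.9% of the microglial and 17.1% of the Müller glial UMIs. The control microglia were 11 droplets with 615 of 10000 UMIs from rod markers, and rods had Hsp90ab1 at 148 to 208 CPM. With expected free RNA subtracted the log2 ratio was 1.58 in microglia and 0.84 in Müller glia, and the Müller glial ratio was under 2-fold in 3 of 9 alternatives.

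In cones Hsp90ab1 was at 273 CPM (226 to 327, 118 UMIs) in control and 660 CPM (605 to 719, 530 UMIs) after light damage, a log2 ratio of 1.27 (0.98 to 1.57). The ratio was 0.78 with expected free RNA subtracted. It was 0.21 in the 3 control and 61 light damage cones with under 500 rod marker UMIs per 10000. The part of rod RNA in it was not tested. Shares of droplets with Hsp90ab1 followed the levels in RPE, 64.0% in control and 88.0% after light damage, or 24.6% and 38.8% after thinning. Across the 12 groups, light-damaged microglia, Müller glia and RPE led in this order without overlap, and 5 of the 11 neighbouring pairs in the whole order overlapped.

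**Figure D4:**
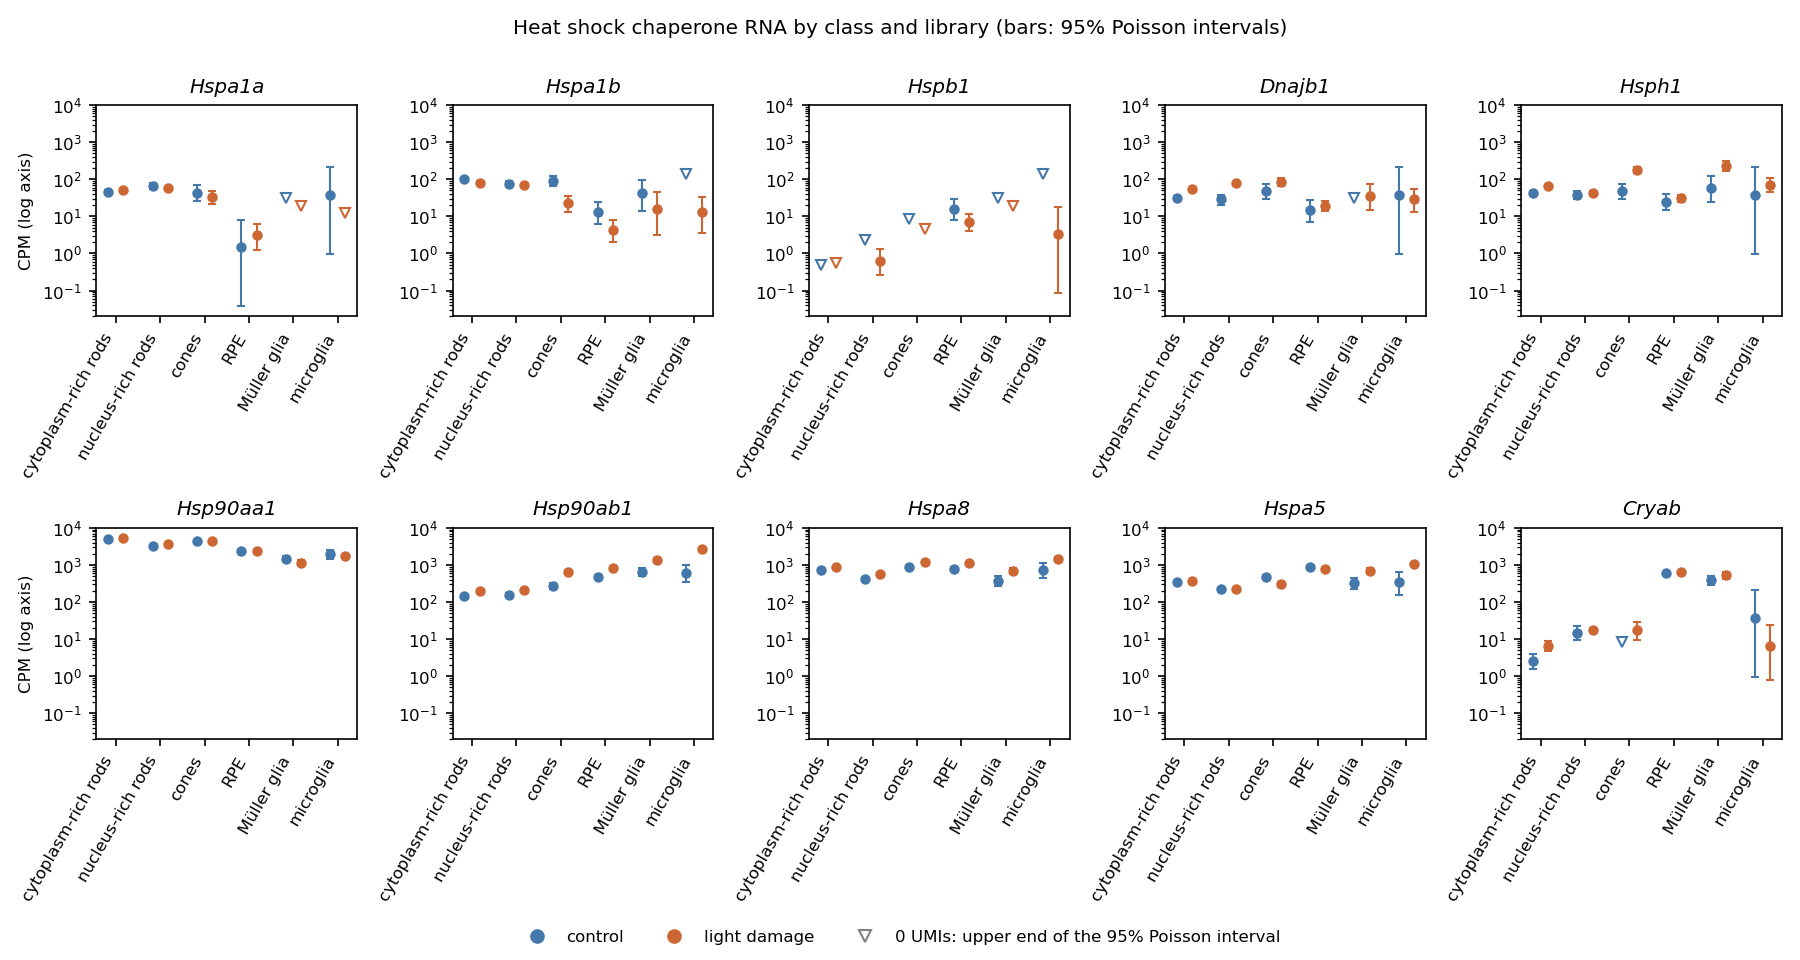
Level of each member (panels, CPM on a log axis) in the 6 classes of the control and light damage library, with 95% Poisson intervals. Hsp90ab1 is highest in light-damaged microglia at 2693 CPM, Cryab in RPE at 595 and 642 CPM, and Hsp90aa1 in cytoplasm-rich rods.

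Hspa8 encodes the constitutive cytosolic HSP70, which also uncoats clathrin vesicles. It was at 741 CPM (722 to 761, 5718 UMIs) in control and 891 CPM (869 to 915, 5808 UMIs) in light-damaged cytoplasm-rich rods, a log2 ratio of 0.27 (0.21 to 0.32). Nucleus-rich rods had 410 CPM (379 to 443, 646 UMIs) and 554 CPM (540 to 568, 6076 UMIs), a log2 ratio of 0.43 (0.32 to 0.55). Cones had 877 CPM (791 to 970) and 1198 CPM (1124 to 1276), and RPE 797 CPM (731 to 867) and 1114 CPM (1071 to 1158). Light damage was higher in each of these 4 classes with intervals apart, by 1.20-fold to 1.40-fold.

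The glial classes pointed the same way for Hspa8, with 380 CPM (277 to 509, 45 UMIs) and 693 CPM (581 to 821, 134 UMIs) in Müller glia and 749 CPM (458 to 1157, 20 UMIs) and 1453 CPM (1321 to 1595, 443 UMIs) in microglia. Hspa8 was therefore, with Hsp90ab1, 1 of the 2 members that were higher after light damage with intervals apart in all 6 classes. The share of all genes that met the same rule was not counted. The ratio of Hspa8 exceeded that of 60.8% of measured genes in cytoplasm-rich rods, the lowest of the 6 classes, and 76.1% in RPE, the highest. Relative to the median gene it was 0.10 in cytoplasm-rich rods. Bipolar-like droplets (24 control and 17 light damage), outside these classes, did not have these 2 members higher. Hspa8 was lower there after light damage, at 1274 CPM (79 UMIs) and 874 CPM (145 UMIs), a log2 ratio of -0.54 (-0.95 to -0.13). Hsp90ab1 had a log2 ratio of -0.38 (-0.95 to 0.21) in them. Free RNA had 759 CPM and 1005 CPM of Hspa8, a log2 ratio of 0.40, close to that in the rods. With expected free RNA subtracted the log2 ratio of Hspa8 was 0.73 in cones, 0.49 in RPE, 1.26 in Müller glia and 1.47 in microglia, and with a minimum of 3000 UMIs per droplet it was 0.28 in microglia.

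Hspa5 encodes BiP, the HSP70 of the endoplasmic reticulum. Its levels went apart between classes: 340 CPM (327 to 353, 2621 UMIs) and 377 CPM (362 to 392, 2454 UMIs) in cytoplasm-rich rods, a log2 ratio of 0.15 (0.07 to 0.23) that was -0.01 relative to the median gene, and 220 CPM (197 to 244) and 227 CPM (218 to 236) in nucleus-rich rods, with overlap. Cones had 475 CPM (412 to 544, 205 UMIs) in control and 299 CPM (262 to 339, 240 UMIs) after light damage, a log2 ratio of -0.67 (-0.94 to -0.39). With expected free RNA subtracted it was -1.78, at least 2-fold lower, and in the cones with under 500 rod marker UMIs per 10000 (3 control droplets) the sign turned, to 0.77.

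RPE had 888 CPM (819 to 962, 602 UMIs) of Hspa5 in control and 796 CPM (760 to 833, 1822 UMIs) after light damage, with overlapping intervals and a log2 ratio of -0.16 (-0.29 to -0.02). Müller glia had 321 CPM (227 to 441, 38 UMIs) and 698 CPM (585 to 826, 135 UMIs), and microglia 337 CPM (154 to 640, 9 UMIs) and 1040 CPM (929 to 1161, 317 UMIs). Both glial classes were higher after light damage without overlap, by log2 ratios of 1.12 (0.59 to 1.68) and 1.63 (0.68 to 2.77). These ratios exceeded those of 77.2% of measured genes in Müller glia and 79.6% in microglia. The richest light damage droplet held 17.8% of the Müller glial and 15.1% of the microglial UMIs of Hspa5.

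Cryab encodes alpha B-crystallin and Hspb1 encodes HSP25, both small heat shock proteins. Cryab marked RPE and Müller glia: RPE had 595 CPM (538 to 656, 403 UMIs) and 642 CPM (610 to 676, 1470 UMIs), and Müller glia 389 CPM (285 to 519, 46 UMIs) and 522 CPM (425 to 635, 101 UMIs), in control and light damage. The intervals overlapped in both classes, so Cryab did not differ detectably where it was high. The next level among the 12 groups, 37.5 CPM in control microglia, was 1 UMI. Of RPE droplets 57.3% and 80.3% had a UMI of Cryab, or 26.2% and 30.2% after thinning.

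In rods Cryab was low. Cytoplasm-rich rods had 2.59 CPM (1.58 to 4.00, 20 UMIs) in control and 6.60 CPM (4.78 to 8.89, 43 UMIs) after light damage, a log2 ratio of 1.35 (0.55 to 2.19), with 0.722% and 1.74% of droplets holding a UMI and 0.156% and 0.442% after thinning. Nucleus-rich rods had 14.6 CPM (23 UMIs) and 17.8 CPM (195 UMIs), which overlapped. Free RNA held 49.2 CPM (62 UMIs) in the control and 212 CPM (540 UMIs) in the light damage library, 4.30-fold, and RPE markers in free RNA went from 32.1 to 125 of 10000 UMIs. With expected free RNA subtracted, the log2 ratio of Cryab in cytoplasm-rich rods was 1.34. Cones had 0 UMIs of Cryab in control, which allows up to 6.95 CPM, and 14 UMIs (17.4 CPM) after light damage, with a lower limit of the ratio of 1.78-fold.

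Among the classes compared, Hspb1 was close to absent outside RPE. RPE had 11 UMIs (16.2 CPM, 8.10 to 29.0) in control and 16 UMIs (6.99 CPM, 3.99 to 11.3) after light damage, with overlapping intervals. Both libraries of cytoplasm-rich rods had 0 UMIs, which allows up to 0.389 CPM in control and 0.460 CPM in light damage, and cones and Müller glia had 0 as well. Light-damaged nucleus-rich rods had 7 UMIs, 57.1% of them in 1 droplet, and light-damaged microglia had 1. All kept droplets together held 19 UMIs of Hspb1 in control and 35 after light damage, more than these classes held. The others lay in droplets outside the classes compared, and the level of Hspb1 there was not tested. Hspb1 carried 2 GAANNTTC matches in the promoter shown above.

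Rods that differ in nuclear content were compared within each library. Relative to cytoplasm-rich rods, nucleus-rich control rods had 0 of 8 measured members at least 2-fold apart, where 44.1% of 8802 genes were, and nucleus-rich light-damaged rods had 1 of 9 (Cryab), where 46.5% of 10557 genes were. The members' medians were -0.32 and -0.26, against 0.64 and 0.77 for all measured genes, so the members leaned to the cytoplasm-rich side. Since the median gene stood 0.59 higher in nucleus-rich control rods and 0.49 higher in light-damaged ones, ratios relative to it are lower by as much.

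Hspa8, Hspa5 and Hsp90aa1 were lower in nucleus-rich rods of both libraries. Hspa8 had log2 ratios of -0.85 (-0.97 to -0.74) in control and -0.69 (-0.74 to -0.63) in light damage, Hspa5 -0.63 (-0.80 to -0.47) and -0.73 (-0.81 to -0.65), and Hsp90aa1 -0.55 (-0.59 to -0.51) and -0.56 (-0.58 to -0.54). Dnajb1 differed between the libraries: its ratio was -0.12 (-0.61 to 0.35) in control and 0.55 (0.37 to 0.73) after light damage, and 0.06 in the latter relative to the median gene. The intervals of these ratios did not overlap. Hsph1 went from -0.19 (-0.60 to 0.21) to -0.59 (-0.78 to -0.40), with overlap.

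The copies of inducible HSP70 split here. Hspa1a was higher in nucleus-rich rods, by 0.52 (0.19 to 0.84) in control and 0.21 (0.01 to 0.40) in light damage, and -0.07 and -0.29 relative to the median gene. Hspa1b was lower, at -0.46 (-0.75 to -0.17) and -0.26 (-0.43 to -0.10). Hsp90ab1 was even, at 0.08 and 0.09, and Cryab was higher, at 2.49 (1.56 to 3.43) on 23 and 20 UMIs and 1.43 (0.95 to 1.94) on 195 and 43 UMIs.

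**Figure D5:**
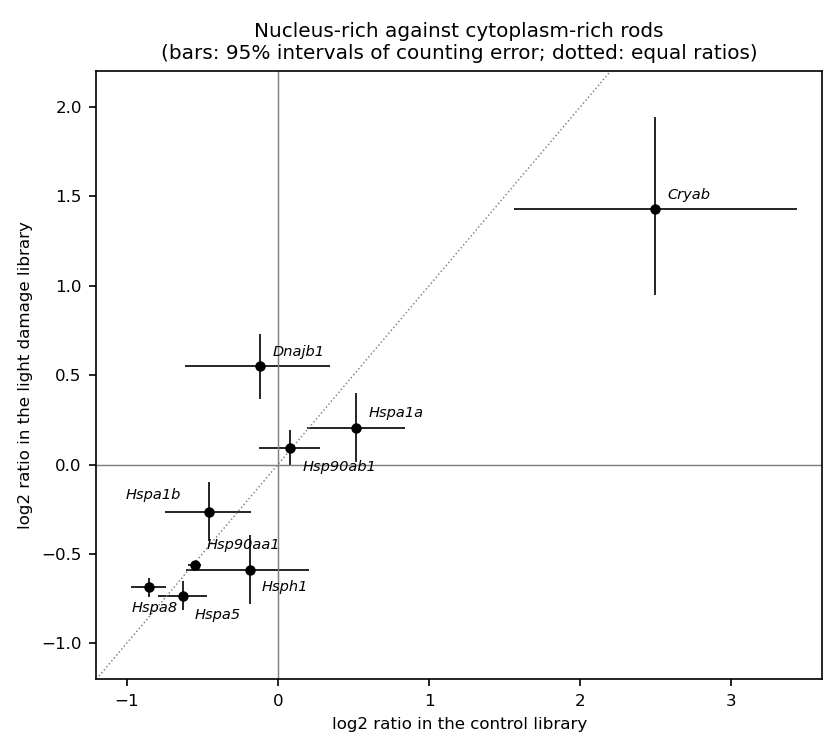
Log2 ratio of nucleus-rich to cytoplasm-rich rods for 9 members in the control and light damage library, with 95% intervals of counting error. Hspa8, Hspa5 and Hsp90aa1 have ratios under 0 in both libraries, Cryab has ratios over 0 in both, and Dnajb1 lies at -0.12 in control and 0.55 after light damage.

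Unspliced UMIs add a second view, for genes with introns. In nucleus-rich rods Dnajb1 had 1 unspliced UMI in control and 32 after light damage, or 0.265 and 1.38 per 1000000 of all UMIs, with a log2 ratio of 2.37 whose interval (-0.21 to 7.72) held 0. Hspa8 had 1 and 62, or 0.265 and 2.67 per 1000000, a log2 ratio of 3.33 (0.80 to 8.66), and Hsp90aa1 165 and 1501, or 43.8 and 64.6 per 1000000, a log2 ratio of 0.56 (0.33 to 0.80). For both of these the unspliced ratio lay on the same side as the spliced one and was the larger, though the 2 ratios have unlike totals. The unspliced one is scaled to all UMIs and the spliced one to spliced and ambiguous UMIs. Of all UMIs in nucleus-rich rods 58.2% were unspliced in control and 52.8% after light damage. Hsp90ab1 had 5 and 65, Hspa5 9 and 87 and Hsph1 17 and 65 unspliced UMIs, with intervals of the ratio that held 0. Cytoplasm-rich rods had at most 26 unspliced UMIs of any member. Hspa1a and Hspa1b had 0 throughout, being without introns.

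Members also differed in intermediate rods and in free RNA. In intermediate rods 2 of 8 measured members were at least 2-fold higher after light damage, where 9.86% of 3642 genes were 2-fold apart: Dnajb1 at 23.2 CPM (15 UMIs) and 111 CPM (48 UMIs), a log2 ratio of 2.26 (1.40 to 3.21), and Hsp90ab1 at 125 CPM (81 UMIs) and 278 CPM (120 UMIs), a log2 ratio of 1.15 (0.73 to 1.58). Median depth there was 2150 UMIs in 137 control and 8360 in 43 light damage droplets. In free RNA 2 of 9 measured members, Dnajb1 and Cryab, were at least 2-fold higher, where 15.5% of 7506 genes were 2-fold apart.

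The rest of the chaperone system was described from lists of other genes. Of 22 further cytosolic HSP70, HSP40, HSP110 and small heat shock genes, 16 were measured in cytoplasm-rich rods, 13 of them higher and 3 lower after light damage, where 65.8% of all genes were higher, with 0 at least 2-fold apart and a median log2 ratio of 0.11, below the 0.17 of all genes. Nucleus-rich rods had 13 of 17 higher, where 54.0% of all genes were, with a median of 0.27 against 0.05. Of these 17, 2 were at least 2-fold higher and 0 at least 2-fold lower, where 11.2% of all genes were that far apart. Dnaja1, an HSP40 of the other main class, stood at 118 and 164 CPM in cytoplasm-rich rods and 108 and 190 CPM in nucleus-rich rods, log2 ratios of 0.47 and 0.82. Hspa2 in nucleus-rich rods had 6 and 124 UMIs, a log2 ratio of 1.57. Hspb11 was lower in both, with log2 ratios of -0.46 in cytoplasm-rich and -0.60 in nucleus-rich rods. Hspa14 was at -0.30 in cytoplasm-rich and Dnajb6 at -0.30 in nucleus-rich rods. Among the co-chaperones of HSP70 and HSP90, 10 of 22 were higher in cytoplasm-rich and 11 of 22 in nucleus-rich rods, with medians of -0.01 and -0.03.

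Heat shock factors, the chaperonin and organelle chaperones were read in rods against the same background, 65.8% of all genes higher in cytoplasm-rich and 54.0% in nucleus-rich rods, and 0 of them was at least 2-fold apart in either class. Hsf2 was at 17.8 CPM (137 UMIs) and 27.5 CPM (179 UMIs) in cytoplasm-rich rods, a log2 ratio of 0.63, and Hsf1, the main stress factor, at 6.87 CPM and 6.45 CPM. Nucleus-rich rods did not have Hsf2 higher, with 152 and 1020 UMIs and a log2 ratio of -0.05 (-0.30 to 0.20). Hsf1 had 81 and 518 UMIs there, a log2 ratio of -0.12 (-0.46 to 0.23). Of the 8 subunits of the chaperonin TRiC, which folds actin and tubulin, 2 were higher in cytoplasm-rich and 4 in nucleus-rich rods, with Cct3 at a log2 ratio of -0.64 in the latter. Of 8 mitochondrial chaperones 3 and 1 were higher. Of 17 measured endoplasmic reticulum chaperones other than Hspa5, 12 were higher in cytoplasm-rich and 7 in nucleus-rich rods, with Herpud1, a factor of the degradation of misfolded proteins, at log2 ratios of 0.41 and 0.95. In nucleus-rich rods Dnajb9 was at 0.79 and P4hb and Calr, which fold secretory proteins, at -0.44 and -0.43.

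In the other classes the same lists were counted against 52.4% of all genes higher in RPE, 60.5% in cones, 54.4% in Müller glia and 65.1% in microglia. In RPE 6 of 8 TRiC subunits were higher, with Tcp1 at 70.8 and 135 CPM and Cct8 at 57.5 and 108 CPM, and 6 of 8 mitochondrial chaperones. Bag3, a co-chaperone that works with HSP70 in selective autophagy, had 7 and 77 UMIs there, a log2 ratio of 1.70. By contrast 16 of 18 endoplasmic reticulum chaperones were lower in RPE, with P4hb higher at a log2 ratio of 1.25. Cones had 12 of 14 lower, and 15 of 18 co-chaperones higher, with Chordc1 at 27.8 and 81.0 CPM. Microglia had 9 of 10 endoplasmic reticulum chaperones and 7 of 8 TRiC subunits higher, on few control UMIs. In Müller glia 4 of 4 measured cytosolic HSP genes were higher, with Dnaja1 at 127 CPM (15 UMIs) and 600 CPM (116 UMIs), and 5 of 5 endoplasmic reticulum chaperones.

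Immediate early genes, which cell handling as well as stimulation can raise, were also higher after light damage. The summed level of 11 of them was 317 CPM in control and 687 CPM in light-damaged cytoplasm-rich rods, 545 and 3286 CPM in nucleus-rich rods, 509 and 1921 CPM in cones, 53.1 and 1181 CPM in RPE, 178 and 4913 CPM in Müller glia, 1348 and 2814 CPM in microglia and 442 and 2402 CPM in free RNA. Their part in the values of Dnajb1, Hsph1 and Hsp90ab1 was not tested.

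The genes whose levels over the 12 groups (6 classes in 2 libraries) were most like those of a member were found by Pearson's r of log2(CPM + 1) among 9728 genes with at least 200 UMIs. These 12 points share libraries, depth and free RNA, so the values only describe. Cryab was most like Rlbp1, a retinoid-binding protein of RPE and Müller glia (r = 0.97), and Hspa5 like Nme1 (0.94) and Pdia6, a disulfide isomerase of the endoplasmic reticulum (0.93). Dnajb1 was most like Rnps1 and Ubap1 (0.94 each), Hsp90ab1 like Dusp3 (0.94) and Hspa8 like Pcbp1 (0.93). Hspa1a was most like Ano2 (0.98) and Hspa1b like Gm47543 (0.98), while the copies had r = 0.32 with each other. Hsph1 had the weakest best match, 0.83 with Hdgf.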

How the data were processed

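Single-cell libraries of 1 pool of control and 1 pool of light-damaged retinae were analysed, barcoded with 10x 3′ chemistry. According to the methods and the submitters' processing notes, the authors mapped reads to mm10 with Salmon (1.10.1) and alevin (0.8.1, as alevin-fry in the methods) and list Cell Ranger (7.0.1). The authors deposited raw UMI counts per barcode and gene in spliced, unspliced and ambiguous blocks, without normalization. Their later steps (empty droplets, doublets, decontX, scVI) are not in these counts. The control library held 30605284 UMIs (18.7% unspliced) over 542576 barcodes and the light damage library 54413601 (32.7%) over 944146. Gene names came from a table of Ensembl identifiers (32158 of 32285 matched) and positions from the GENCODE annotation of GRCm38.

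Droplets were kept above the inflection of the barcode rank curve (1464 and 1614 UMIs) with a mitochondrial share under 10%. The top 0.8% of Scrublet scores per 1000 droplets were left out (114 and 276), since the automatic threshold called 0 in either library. Classes were named from marker UMIs per 10000 (RPE 150, rods 100, cones, Müller glia, microglia and bipolar cells 60, with at least 3 markers), limits set after the marker levels had been seen. The members, gene lists and markers were chosen with earlier results of these data known, and genes were named as all members plus at most the 2 largest and 2 smallest ratios of each list. Spliced and ambiguous UMIs were summed per class and library, which held 26698 to 10966353 UMIs. CPM carry exact Poisson, shares exact binomial and ratios exact conditional binomial intervals at 95%, which cover counting error only. An upper limit for 0 UMIs is 3 UMIs. Barcodes under 50 UMIs stood for free RNA. Thinned shares are the mean calculated chance of at least 1 UMI at 700 spliced and ambiguous UMIs per droplet. Droplets with fewer were left out, 48 control and 90 light damage nucleus-rich rods and 1 control Müller glia droplet. The intervals were tested on simulated counts. Alternatives changed the UMI minimum, mitochondrial limit, doublet removal, naming, rod split, counting, free RNA, scaling and gene filter. matplotlib 3.10.9, igraph 0.11.9, leidenalg 0.10.2, scikit-learn 1.9.0, scanpy 1.11.5 with anndata 0.12.19, pandas 2.3.3, scipy 1.17.1 and numpy 2.4.6 were run in Python 3.11.15.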

Additional observations from a re-analysis of the deposited data

Results flagged for a closer look

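Members differed in droplets outside the main comparisons. In free RNA, from barcodes under 50 UMIs, Dnajb1 was 2.61-fold and Cryab 4.30-fold higher in the light damage than in the control library. In intermediate rods Dnajb1 was 4.80-fold and Hsp90ab1 2.22-fold higher after light damage. They were picked out because these droplets belong to no comparison of classes and the values lie above the control level. With 1 library per condition these differences have no replicate check.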

How the results depend on the processing

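No paired analysis was possible because each condition is 1 library, for which reason no library could be left out either. Over 84 alternative counts of members at least 2-fold apart, 73 stayed within 1.5 times the reported count, 11 did not and 0 reversed. Of 624 alternative log2 ratios of single members 596 kept their sign, while 541 were classed as the same and 83 as moved. An equal count can hold other members: with Leiden clusters cones kept 3, with Dnajb1 in place of Hsph1. For cytoplasm-rich rods the count was 0 rather than 1 with a minimum of 3000 UMIs per droplet and 0 with a mitochondrial limit of 5%. The log2 ratio of Cryab was 0.90 in the former, and 1.67 in the latter, where it had under 50 UMIs and was not counted. Müller glia had 1 rather than 3 with a minimum of 3000 UMIs. Microglia had 4 rather than 2 with expected free RNA subtracted, where the log2 ratio of Hsp90aa1 was 1.60. RPE had 2 rather than 0 with a minimum of 10 UMIs per gene, Hspa1b and Hspb1, both lower. For nucleus-rich against cytoplasm-rich control rods the count was 1 rather than 0 with Leiden clusters, 7 with unspliced UMIs added, 4 centred on the median gene and 1 with a minimum of 10 UMIs. For the light damage rods it was 5 rather than 1 with unspliced UMIs added and 4 centred. Those 7 and 5, and the 4 when centred, were all lower in nucleus-rich rods, and the reported call of Cryab as higher was lost in both of these settings. Adding unspliced UMIs raises the total of nucleus-rich rods by construction. The other causes were not tested. Müller glia gave no value with Leiden clusters, which left no control droplet. Cryab in nucleus-rich rods was at -0.88 with Leiden clusters. The log2 ratio of Dnajb1 ranged from 1.23 to 1.66 in nucleus-rich and from 0.63 to 0.83 in cytoplasm-rich rods, and that of Hsp90ab1 from 0.62 to 0.86 in RPE. Depth limits the members with few UMIs, Hspb1 throughout and Hspa1a, Hspa1b and Dnajb1 in glia.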
